A study of Mus musculus with 8 samples.

Results

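Milk is mostly water, and 9 genes that move water, phosphate, iodide and salt across the mammary epithelium are described here. They were chosen by name: the water channels Aqp1, Aqp3 and Aqp5, the phosphate cotransporter Slc34a2, the iodide transporter Slc5a5, and Slc12a2, Atp1b1, Scnn1a and Cftr, which carry sodium, potassium or chloride. These are 9 of the 18749 genes with a named probe on the array. Of the 9, 8 were bright enough to be tested, among 14137 genes tested in all, and Cftr was not.

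RNA was measured in No. 4 mammary glands at lactation day 1 from 4 wild-type dams (WT) and 4 dams lacking Th-POK (knockout, KO), 1 dam to an array, on one-colour Agilent mouse arrays. All were female C57/Bl6 mice. The methods describe the females as matched in age, and the age of each dam at harvest is not given in the sources used here. Th-POK is a zinc finger transcription factor, made by the gene Zbtb7b and best known for its need in the development of CD4 T cells. The sources name no promoter or Cre that would limit the knockout to 1 tissue, so the epithelium, the immune cells and the rest of the KO gland all came from a deficient animal. Whole glands were used, so fewer cells of a type and less RNA per cell cannot be told apart.

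The 4 WT arrays lay on 1 slide and the 4 KO arrays on another, so slide and genotype cannot be told apart for any difference given here. Probes well above background made up 66.9 to 75.3% of all probes on the WT arrays and 66.8 to 70.9% on the KO arrays, and no spot was saturated. The Zbtb7b probe read 9.90 to 10.42 in log2 signal in WT glands. In KO glands it read 1.55 to 1.65 and was above background on 0 of 4 arrays, which made the signal at least 81.5-fold lower (adjusted p = 5.71e-09), so the labels fit the arrays. The milk protein genes, which mark a lactating gland, had a log2 summed signal of 20.51 to 20.64 in WT and 20.53 to 20.75 in KO glands. Quantile normalization gives each array the same set of values, so a sum over very bright genes can differ little.

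The epithelial cell that makes milk takes up salts across the basolateral membrane and releases or reclaims them across the apical membrane, and water follows through channels of the aquaporin family. The sodium pump keeps cell sodium low and potassium high, and that gradient drives the cotransporters for phosphate, iodide and chloride. Apical sodium channels and the chloride channel CFTR set the salt of the finished milk, which is low in sodium and chloride compared with plasma. The lactating gland also concentrates iodide and phosphate for the suckling young.

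Among the genes tested, Aqp3 and Slc34a2 were lower in the KO glands, and Atp1b1 and Scnn1a were higher. Slc5a5, Aqp1, Aqp5 and Slc12a2 did not pass the test. A gene is called here where limma's adjusted p, corrected over all 14137 genes, was under 0.05, and this held for 4 of the 8 transporter genes beside 16.5% of all genes tested. The 2 lower genes stand beside 8.96% of all genes called lower, and the 2 higher genes beside 7.53% called higher. Each of the 4 also differed by at least 2-fold, as did 4.37% of all genes together with a call. The WT and KO arrays did not overlap for 4 of the 8, Aqp3, Slc34a2, Atp1b1 and Aqp1, beside 24.1% of all genes. The median difference of the 8, KO minus WT, was -0.24 on the log2 scale against -0.02 over all genes, and the median size of the difference was 1.03 against 0.27. Leaving out 1 array at a time left 2 (without WT2) to 7 (without WT1) of the 8 called. With 8 genes, these shares describe the genes chosen and carry no test of their own.

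The promoters of the 3 genes with the lowest adjusted p are shown because their signal moved in both directions. Each is the 250 bases before the start of the gene, read along the gene strand in the RefSeq table of GRCm38.p6, and capitals mark every match to TATANA on either strand.
Slc34a2, chr5:53049103-53049352, plus strand: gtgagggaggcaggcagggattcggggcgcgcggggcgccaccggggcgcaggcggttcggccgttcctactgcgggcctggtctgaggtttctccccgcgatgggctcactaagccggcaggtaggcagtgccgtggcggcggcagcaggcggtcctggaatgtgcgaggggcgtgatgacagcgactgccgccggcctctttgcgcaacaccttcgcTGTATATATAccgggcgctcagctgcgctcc
Aqp3, chr4:41098184-41098433, minus strand: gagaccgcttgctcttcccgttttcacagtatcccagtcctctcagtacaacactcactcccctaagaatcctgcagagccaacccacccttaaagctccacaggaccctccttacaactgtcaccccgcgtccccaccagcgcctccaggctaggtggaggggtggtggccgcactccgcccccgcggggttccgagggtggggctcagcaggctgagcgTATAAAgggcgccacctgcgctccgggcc
Atp1b1, chr1:164458356-164458605, minus strand: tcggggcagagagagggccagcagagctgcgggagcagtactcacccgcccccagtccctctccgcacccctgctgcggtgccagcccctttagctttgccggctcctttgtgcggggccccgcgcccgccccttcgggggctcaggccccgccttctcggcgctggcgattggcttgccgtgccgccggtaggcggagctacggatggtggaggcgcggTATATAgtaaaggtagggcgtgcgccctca

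The table held a promoter for 7 of the 9 genes, all but Slc12a2 and Scnn1a. The letters TATANA, searched after these sequences had been seen, stood in 3 of the 7, the 3 shown, against 22.6% of the 32851 promoters of the same length. In all 3 a match on the gene strand began 20 to 40 bases before the start, as in 3.1% of all promoters. Since the letters were picked with these sequences in view, neither share is a test of enrichment. The first base of the match lay 29 bases before the start in Aqp3, 30 in Atp1b1, and 29 and 27 for overlapping matches in Slc34a2. The genes that fell and the gene that rose held the same letters at nearly the same place. The letters TTCNNNGAA, a form of the site bound by STAT5, the factor that carries the prolactin signal, stood in 0 of the 7 and in 7.0% of all promoters. GATAAG, a form of the GATA site, stood in 0 of the 7 and in 6.5% of all promoters. Such matches describe letters in a short window and say nothing of binding.

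**Figure D1:**
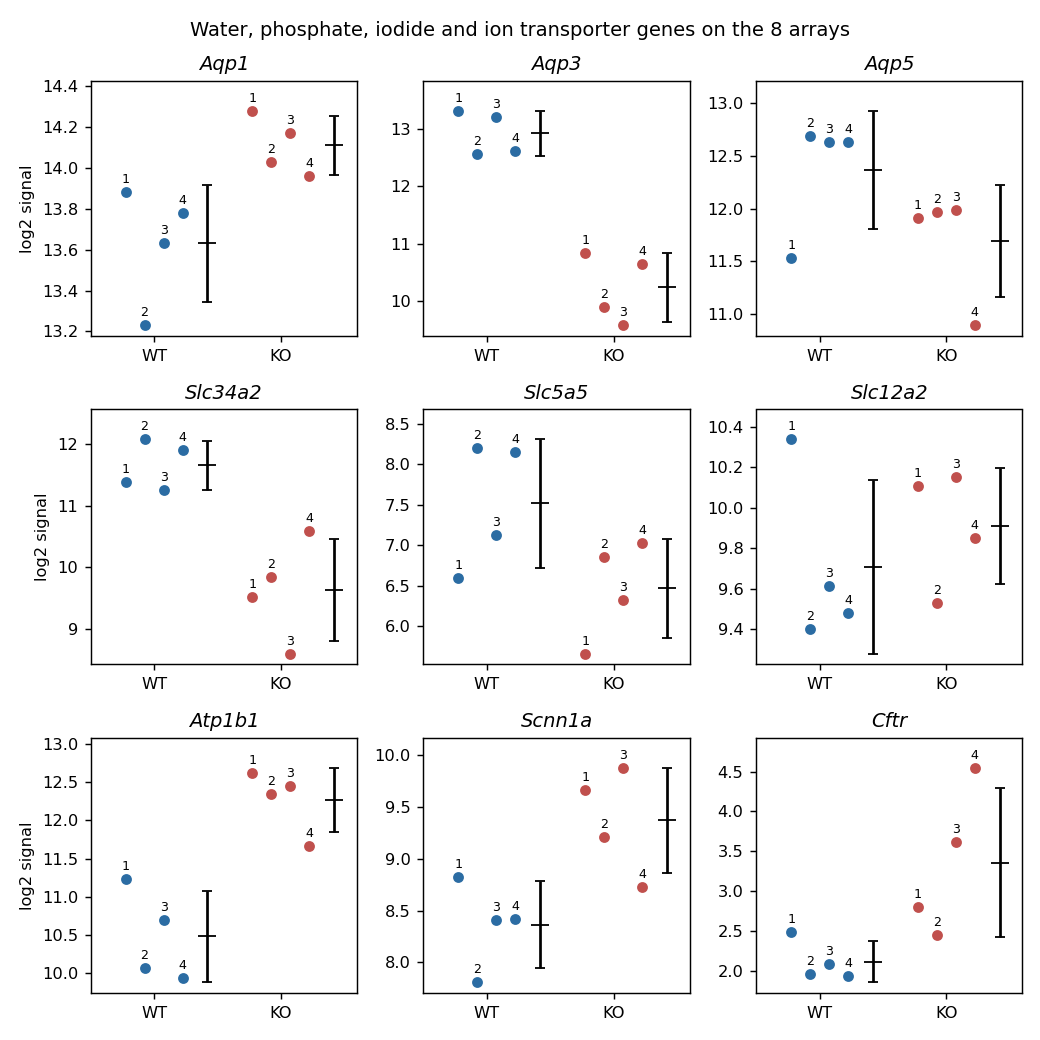
Log2 signal (vertical axis) of each of the 9 transporter genes on the WT and KO arrays, with points numbered by replicate and a bar at the mean ± SD (n = 4). The KO points lie wholly below the WT points for Aqp3 and Slc34a2 and wholly above them for Atp1b1 and Aqp1, and the Cftr panel shows a probe that was above background on 1 array only, KO4.

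Of the water channels, Aqp3 fell and neither Aqp1 nor Aqp5 passed the test. Aqp3 makes an aquaglyceroporin, a channel for water and glycerol that lies in the basolateral membrane of many epithelia. Its log2 signal was 13.31, 12.55, 13.20 and 12.61 on WT arrays 1 to 4, and 10.83, 9.90, 9.58 and 10.65 on KO arrays 1 to 4. Every KO array was far below every WT array, and the genotypes were separated by more than the whole range of either. The mean went from 12.92 ± 0.40 to 10.24 ± 0.60 (SD, n = 4 each), a fall of 6.40-fold. The difference was -2.68 on the log2 scale (SE 0.31, 95% interval -3.39 to -1.97, adjusted p = 0.00436), and 41 of the genes tested, 0.290%, had a larger one in either direction. Between a WT and a KO array of equal number the difference was -2.49, -2.64, -3.63 and -1.96. The call held in all 18 other ways of processing the data that were tried.

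Aqp1 makes the water channel of red blood cells and of capillary endothelium. It read 13.88, 13.23, 13.63 and 13.78 on WT arrays 1 to 4, and 14.28, 14.03, 14.17 and 13.96 on KO arrays 1 to 4. The KO arrays all lay above the WT arrays, by a small margin between KO4 and WT1. The mean was 13.63 ± 0.29 in WT and 14.11 ± 0.14 in KO glands (SD, n = 4 each), a difference of 0.48 (SE 0.16, 95% interval 0.13 to 0.84), or 1.40-fold. Its adjusted p was 0.0635, so it was not called, though it passed without WT1 (0.57, adjusted p = 0.0421).

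The cells that Aqp1 marks were followed by their own genes. Of 15 endothelial genes tested, 0 were called by limma, 0 with the replicate block and 0 by the methods' t-test. At an unadjusted p under 0.05 there were 2. Their log2 summed signal spanned 14.77 to 15.01 on the WT arrays and 14.73 to 15.19 on the KO arrays, ranges that overlap widely. Of 6 erythroid genes tested, 1 was called, the alpha globin gene Hba-a1, higher by 1.16 in KO glands (adjusted p = 0.0474), and 0 were called with the replicate block or by the methods' t-test. The erythroid summed signal was 15.24 to 16.61 on the WT arrays and 16.57 to 17.58 on the KO arrays. The part of red cells in the Aqp1 signal was not tested.

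Aqp5 makes a water channel of the apical membrane of secretory glands. It read 11.53, 12.69, 12.63 and 12.63 on WT arrays 1 to 4, and 11.91, 11.97, 11.99 and 10.89 on KO arrays 1 to 4. In each genotype 3 arrays lay close together and 1, WT1 or KO4, lay well below them, so that WT1 fell inside the KO range. The means were 12.37 ± 0.56 and 11.69 ± 0.54 (SD, n = 4 each), and the difference was -0.68 (SE 0.33, 95% interval -1.45 to 0.08, adjusted p = 0.175). Without WT1 it was -0.96 and passed (adjusted p = 0.0436).

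Slc34a2 makes the sodium-phosphate cotransporter NaPi-IIb of the apical membrane. Its log2 signal was 11.38, 12.08, 11.25 and 11.90 on WT arrays 1 to 4, and 9.52, 9.83, 8.59 and 10.59 on KO arrays 1 to 4. The genotypes did not overlap, and the KO arrays were more spread, with KO3 the lowest and KO4 the highest. The mean fell from 11.65 ± 0.40 to 9.63 ± 0.83 (SD, n = 4 each), or 4.07-fold. The difference was -2.02 (SE 0.39, 95% interval -2.92 to -1.13, adjusted p = 0.0176), and it was below 0 in 4 of 4 pairs, from -2.66 to -1.31.

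A second Slc34a2 probe read 10.93, 11.99, 11.12 and 11.80 on the WT arrays and 9.30, 9.47, 8.08 and 10.38 on the KO arrays. It moved the same way, by -2.16, with an adjusted p of 0.0222 in a fit of single probes in which the first probe had 0.0181. Both probes placed KO3 lowest and KO4 highest among the KO glands. The gene's call was lost without WT2 (-1.88, adjusted p = 0.0511) and with the array's position on the slide as a block (adjusted p = 0.0764).

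The other phosphate carriers tested were Slc20a1, Slc20a2 and Xpr1, and 1 of the 3 was called. Slc20a1, which makes the sodium-phosphate cotransporter PiT-1 found in most cells, was lower in the KO glands too. It read 11.82, 13.23, 12.66 and 12.18 on WT arrays 1 to 4 and 11.15, 11.06, 11.22 and 11.33 on KO arrays 1 to 4, with no overlap. The difference was -1.28 (SE 0.27, adjusted p = 0.0218), and the call was lost in 6 of 18 other settings, among them leaving out WT3, KO1, KO2 or KO3 in turn (adjusted p up to 0.0610). Xpr1, the phosphate exporter, and Slc20a2 each lay within 0.01 of no difference. Slc20a2 was at 0.14 with the mean of its probes and with another background correction, and was not called.

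Iodide is drawn from blood by Slc5a5, which makes the sodium-iodide symporter of the basolateral membrane in thyroid and lactating mammary gland. It read 6.59, 8.20, 7.12 and 8.15 on WT arrays 1 to 4, and 5.66, 6.85, 6.32 and 7.03 on KO arrays 1 to 4. The genotypes overlapped, but in both of them the arrays numbered 2 and 4 were high and those numbered 1 and 3 low. The means were 7.51 ± 0.79 and 6.47 ± 0.62 (SD, n = 4 each), a difference of -1.05 (SE 0.43, 95% interval -2.02 to -0.07), or 2.07-fold, with an adjusted p of 0.117. Within pairs the difference was -0.93, -1.35, -0.79 and -1.12, and a fit with the replicate block, which pairs equal numbers, called the gene (adjusted p = 0.0119). It also passed without WT1 (-1.36, adjusted p = 0.0460), and another background correction made the difference smaller (-0.63, adjusted p = 0.136).

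Of 5 other genes listed for iodide handling that could be tested, 2 were called, and neither is known chiefly for iodide. Slc5a6, the sodium-dependent carrier of the vitamins biotin and pantothenate, fell in the KO glands, from 11.69 to 12.06 on the WT arrays to 9.70 to 10.59 on the KO arrays. Its difference was -1.78 (SE 0.19, adjusted p = 0.00319) and the call held in all 18 other settings. Slc5a8, a sodium-coupled carrier of lactate and other monocarboxylates, rose by 2.67 (SE 0.50, adjusted p = 0.0160, and 0.0519 without KO3). Its mean was 8.75 ± 1.11 in WT and 11.41 ± 0.38 in KO glands (SD, n = 4 each), with no overlap and the WT arrays the more spread. Duox1, a maker of hydrogen peroxide, differed by -0.84 (adjusted p = 0.169, and 0.0406 with the replicate block).

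**Figure D2:**
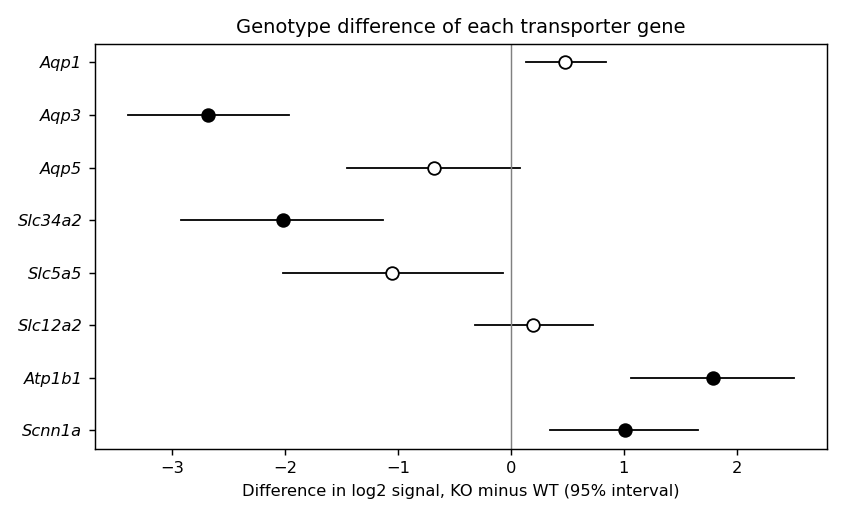
Difference in log2 signal, KO minus WT (horizontal axis), for the 8 transporter genes tested, with the 95% interval from limma as a line. Filled points passed an adjusted p of 0.05 (Aqp3, Slc34a2, Atp1b1 and Scnn1a) and open points did not.

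Of the sodium, potassium and chloride genes, Atp1b1 and Scnn1a rose and Slc12a2 did not pass the test. Atp1b1 makes a beta subunit of the sodium pump, which the catalytic alpha subunit needs to reach the plasma membrane. Its log2 signal was 11.23, 10.07, 10.69 and 9.93 on WT arrays 1 to 4, and 12.62, 12.35, 12.45 and 11.66 on KO arrays 1 to 4. All KO arrays were above all WT arrays, with WT1 and KO4 the nearest to each other. The mean rose from 10.48 ± 0.60 to 12.27 ± 0.42 (SD, n = 4 each), or 3.45-fold, a difference of 1.79 (SE 0.32, 95% interval 1.06 to 2.51, adjusted p = 0.0145). It was above 0 in 4 of 4 pairs, from 1.39 to 2.28, and the call was lost only with slide position as a block (adjusted p = 0.0700).

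Another beta subunit, Atp1b3, differed by -0.03 (adjusted p = 0.832) and was not called. Of the 10 other pump subunits and FXYD regulators tested, 1 was called, an FXYD gene: Fxyd2, the gamma subunit that tunes the pump, fell by 0.85 on the log2 scale (adjusted p = 0.0365, and 0.0622 with the replicate block). That call was also lost with 1 array left out in 6 of 8 fits, all but those without WT1 or WT4 (adjusted p up to 0.0951). Fxyd6 differed by 1.29 with an adjusted p of 0.0738, and 0.0329 with the block.

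Scnn1a makes the alpha subunit of the epithelial sodium channel ENaC, through which sodium leaves the lumen. It read 8.82, 7.81, 8.41 and 8.42 on WT arrays 1 to 4, and 9.66, 9.21, 9.88 and 8.73 on KO arrays 1 to 4. The genotypes overlapped, since KO4 lay below WT1. The mean rose from 8.37 ± 0.42 to 9.37 ± 0.51 (SD, n = 4 each), or 2.01-fold, a difference of 1.01 (SE 0.29, 95% interval 0.35 to 1.66, adjusted p = 0.0466). It was above 0 in 4 of 4 pairs, from 0.31 to 1.47. The call was close to the threshold and was lost in 9 of 18 other settings, among them leaving out WT2, WT3, WT4, KO1, KO2 or KO3 in turn (adjusted p up to 0.117). A second Scnn1a probe was above background on 0 of 8 arrays.

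The channel's other subunits and its regulators gave 3 calls among 12 genes tested. Scnn1g, the gamma subunit, differed by 0.67 (adjusted p = 0.0703) and Scnn1b, the beta subunit, by 0.45 (adjusted p = 0.264), so neither passed. Nedd4l, a ubiquitin ligase that takes ENaC from the membrane, rose by 1.14 (SE 0.17, adjusted p = 0.00969), from 8.03 to 8.79 on the WT arrays to 9.45 to 9.73 on the KO arrays. Sgk1, a kinase that restrains Nedd4l, fell by 1.42 on the log2 scale (SE 0.27, adjusted p = 0.0171, and 0.0529 without KO3), with 13.06 to 13.92 on the WT arrays and 11.71 to 12.51 on the KO arrays. Prss8, a protease that opens the channel, rose by 0.43 (SE 0.11, adjusted p = 0.0312). The Prss8 call was lost in 7 of 18 other settings, among them leaving out any array but WT1 or WT4 (adjusted p up to 0.0836), so both Prss8 and Scnn1a passed narrowly.

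Slc12a2 makes the basolateral sodium-potassium-chloride cotransporter NKCC1. It read 10.34, 9.40, 9.61 and 9.48 on WT arrays 1 to 4, and 10.11, 9.53, 10.15 and 9.85 on KO arrays 1 to 4. The highest value of all was that of WT1, and the other WT arrays lay within or below the KO range. The means were 9.71 ± 0.43 and 9.91 ± 0.28 (SD, n = 4 each), a difference of 0.20 (SE 0.23, 95% interval -0.32 to 0.73, adjusted p = 0.559). Of 12 other cation-chloride cotransporters and kinases tested, 2 were called, both higher. One of them, Slc12a8, a distant member of the family, rose by 0.95 (adjusted p = 0.0364). Its call was lost in 9 of 18 other settings, among them leaving out WT1, WT2, WT3, WT4, KO1 or KO3 in turn (adjusted p up to 0.0987).

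Cftr, the apical chloride channel mutated in cystic fibrosis, gave no testable signal. Its first probe has 10 spots on the array, and on KO4 all 10 were above background. On the WT arrays and on KO1, KO2 and KO3, at most 1 spot of the 10 was. Its log2 signal was 2.49, 1.96, 2.08 and 1.93 on the WT arrays, and 2.80, 2.45, 3.62 and 4.55 on the KO arrays. Its second probe was above background on 0 of 8 arrays, so only the KO4 gland gave a reading.

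Among 27 genes of other chloride and bicarbonate pathways, 4 were called, 2 in each direction. Clcn2, the chloride channel ClC-2, rose by 1.09 (SE 0.14, adjusted p = 0.00621), and Best1, a calcium-activated anion channel, by 1.46 (SE 0.25, adjusted p = 0.0140). Slc26a2, a sulfate carrier, fell by 0.90 on the log2 scale (adjusted p = 0.0247), but not past the threshold without WT2, WT3, KO1, KO2 or KO3 (adjusted p up to 0.0689). Lrrc8e, a subunit of the volume-regulated anion channel, fell by 0.63 on the log2 scale (adjusted p = 0.0387), but its probes disagreed, their mean gave a difference of 0.24, and the call was lost on leaving out any array but WT1 or KO4 (adjusted p up to 0.104). With the replicate block 5 genes of these 27 were called. Of 10 epithelial potassium channels tested, limma called 0 and the methods' t-test 0. At an unadjusted p under 0.05 there were 3, Kcnn4, Kcnk1 and Kcnk6, with differences of -1.07, -0.79 and -0.71, and with the replicate block the same 3 were called (adjusted p = 0.0106, 0.0179 and 0.0181).

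Of the other aquaporins, 5 were tested and 1 was called. Aqp9, another channel for water and glycerol, read 6.58 to 7.22 on the WT arrays and 2.55 to 5.89 on the KO arrays. It was above background on 4 WT arrays and 2 KO arrays, and the difference was -2.72 (SE 0.62, adjusted p = 0.0264). Another background correction, which treats such dim values differently, put it at -0.95, and the call was lost without WT2, WT3, WT4, KO1 or KO3 (adjusted p up to 0.0721). Over all 8 lists, with a gene in more than 1 list counted once, 14 of 82 genes tested were called, 7 higher and 7 lower. That is 17.1% beside 16.5% of all genes. With 1 array left out at a time the count went from 5 (without KO3) to 19 (without KO4), and it was 6 to 8 without WT2, WT3, KO1 or KO2. Their median difference was 0.05, and -0.02 over all genes.

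**Figure D3:**
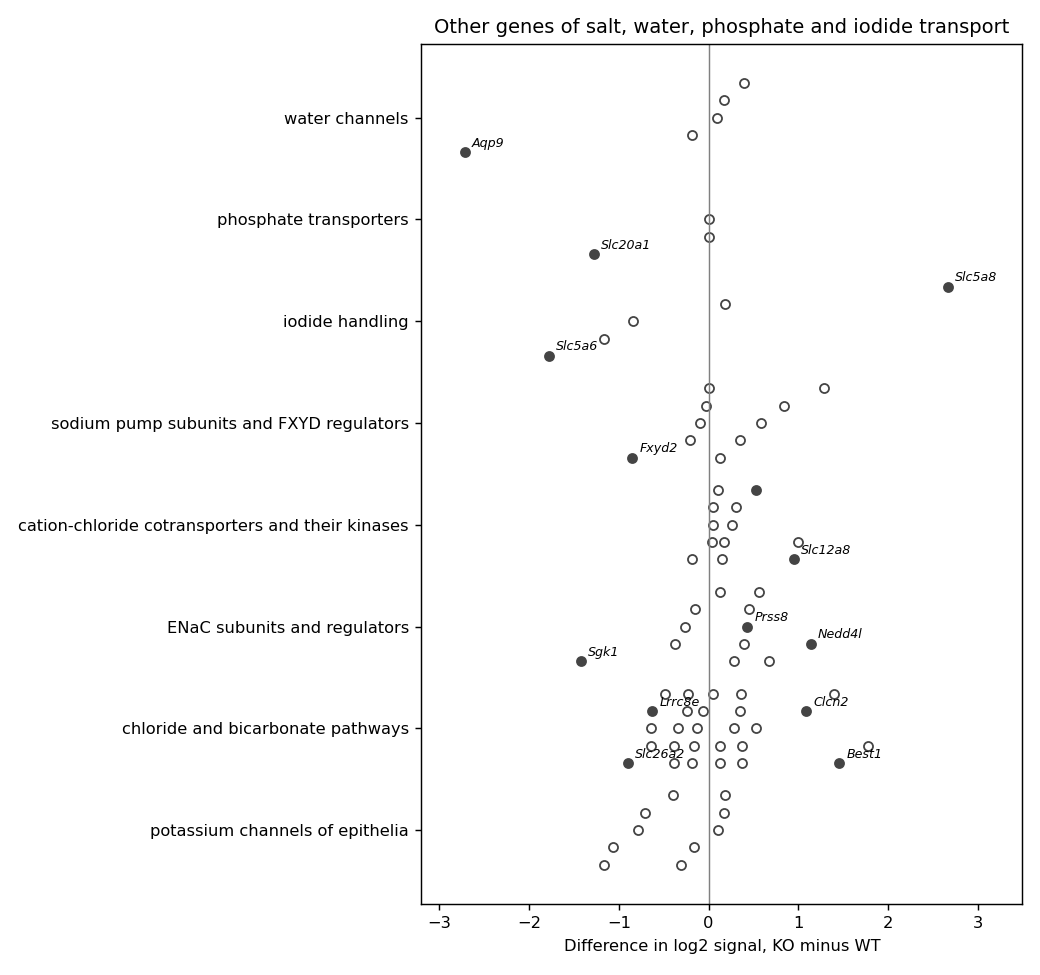
Difference in log2 signal, KO minus WT (horizontal axis), for the 82 other transport genes tested, in 8 lists (vertical axis). The height within a list has no meaning, and Kcne2 and Kcnq1 are drawn in both the iodide and the potassium channel lists. Filled points are the 14 that passed an adjusted p of 0.05, the genes described in the text are named beside them, and they lie on both sides of 0.

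The transporter genes did not all follow the same order among the glands. WT1 was the WT array nearest to the KO mean for 5 of the 8 genes, and KO4 was the KO array nearest to the WT mean for 6 of the 8. With the mean of each genotype taken away, Atp1b1 and Slc5a5 ran against each other over the 8 arrays (Pearson r = -0.92), as did Slc34a2 and Scnn1a (r = -0.87). Aqp3 and Scnn1a showed no such relation (r = 0.00). Other genes whose pattern was most like that of a called gene, by the same measure over the 8 arrays and among all genes tested, were Ascc3, Acaca and Tshb for Slc34a2 (r from 0.97 to 0.98) and Sparc, Tpcn2 and Akap7 for Aqp3 (r from 0.96 to 0.97). For Atp1b1 they were Hdac6, Nsa2 and Plekho2 (r from 0.99 to 1.00), and for Scnn1a Nhsl1, Inhbb and Cnbd2 (r from 0.98 to 0.99). With the genotype means kept, r was 0.51 to 0.93 for the genes named for Slc34a2 and -0.74 (Akap7) to 0.82 for those of Aqp3. It was -0.16 (Hdac6) to 0.85 for those of Atp1b1 and 0.97 to 0.98 for those of Scnn1a. These are descriptions over few arrays, picked as the highest of many, and the arrays of each genotype share a slide.

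Markers of the cell types in the gland moved to differing degrees. Luminal epithelial genes had 4 of 11 called, all higher, and 1 by the methods' t-test. Their log2 summed signal was 17.91 to 18.24 on the WT arrays and 18.33 to 18.50 on the KO arrays. Milk protein genes had 0 of 8 called by limma and 0 by the methods' t-test, and 1 with the replicate block. At an unadjusted p under 0.05 there were 0 milk protein genes, the brightest of which quantile normalization keeps close between arrays. Of the 11 luminal genes 9 had a difference above 0, while Elf5 was at -0.35 (adjusted p = 0.107). Aqp3 and Slc34a2 were lower in the KO glands, and the part of luminal cells in those differences was not tested. Of the other epithelial lists, hormone-sensing luminal genes had 1 of 5 called, Foxa1, higher by 1.00 (adjusted p = 0.0490), and 0 with the replicate block or by the methods' t-test. Their log2 summed signal was 13.07 to 13.69 in WT and 12.89 to 14.17 in KO glands. The basal genes had 1 of 10 called, lower, and 0 by the methods' t-test (16.67 to 17.25 WT, 16.52 to 17.12 KO).

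Neutrophil genes had 3 of 7 called, all higher, with a summed signal of 16.04 to 16.62 on the WT arrays and 17.37 to 18.05 on the KO arrays. Most of that sum was Ltf, the lactoferrin gene, which mammary epithelium makes too, at 16.00 to 16.56 in WT and 17.30 to 17.94 in KO glands. The other called genes, Camp and Ngp, were above background on 0 of 4 WT arrays and 4 of 4 KO arrays. They entered the test through the KO arrays alone, so a call could only be in that direction. S100a8 (0.49, adjusted p = 0.357) and S100a9 (2.19, adjusted p = 0.0566) were not called, nor were Mpo and Retnlg. The replicate block called 4 of the 7 and the methods' t-test 3. Adipocyte genes had 2 of 8 called, higher, and 0 by the methods' t-test (17.90 to 18.37 WT, 18.41 to 18.93 KO). Fibroblast genes had 1 of 9 called, higher, 2 with the block and 1 by the methods' t-test (17.43 to 17.77 WT, 17.74 to 18.30 KO). These 3 lists and the luminal list moved in the same direction as Atp1b1 and Scnn1a, and their part in those differences was not tested. T cell genes had 2 of 7 called, lower, 1 with the block and 0 by the methods' t-test (9.28 to 10.80 WT, 9.36 to 9.83 KO). B cell genes had 1 of 4 called, higher, and 0 with the block or by the methods' t-test (8.53 to 9.08 WT, 9.09 to 9.90 KO). Of 5 skeletal muscle genes 1 was called, Tnnt3, at -1.28, and 0 with the block or by the methods' t-test. The median of the list was 0.48 (10.85 to 11.12 WT, 10.34 to 12.38 KO). Macrophage genes had 0 of 8 called by limma, with the block or by the methods' t-test (13.60 to 14.01 WT, 13.38 to 14.11 KO). At an unadjusted p under 0.05 there were 0 macrophage genes. Of the genes that define these lists, Pgr and Ckm were too dim to be tested, and Hbb-b1 and Cd68 had no matched probe.

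**Figure D4:**
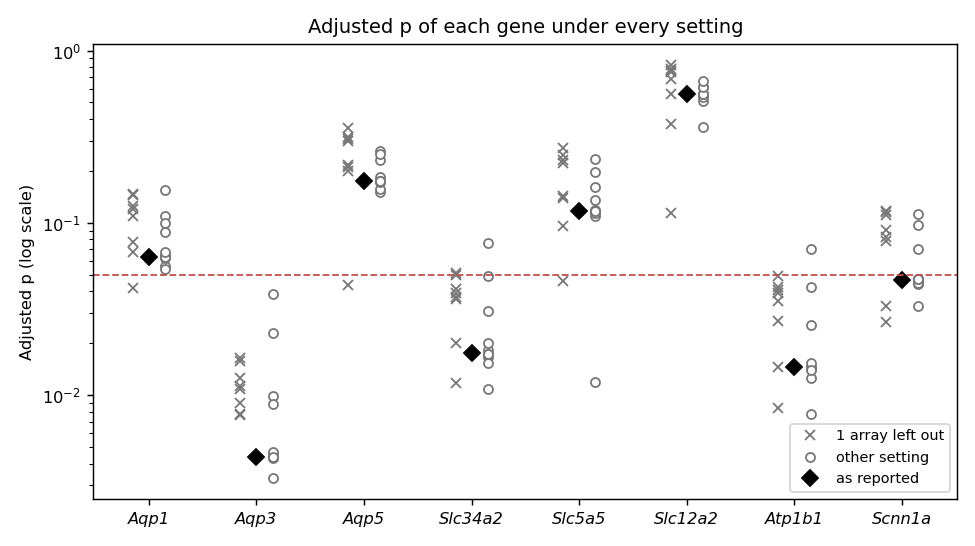
Adjusted p (vertical axis, log scale) of each of the 8 transporter genes tested as reported (diamond), with 1 array left out (crosses) and under other settings (open circles), with a dashed line at 0.05. Every mark of Aqp3 lies below 0.05, while those of Scnn1a lie on both sides of it.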

How the data were processed

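Per the labels, total RNA of 4 WT and 4 KO dams (No. 4 mammary gland) was hybridised to one-colour arrays and read with Agilent Feature Extraction 10.7. Feature Extraction had removed the background and the spatial trend from the intensity values that the authors deposited, 1 array at a time. The authors also deposited a log2 table, quantile-normalized in GeneSpring, which was used as an alternative only; its columns correlated with the log2 scanner values at r = 1.0000 and had a median of 6.33.

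Genotypes came from the labels. Log2 processed intensities, without control spots, were quantile-normalized across the 8 arrays (limma 3.58.1, R 4.3.3). Outlier spots, 64 to 100 on an array, were dropped and a probe's remaining spots averaged, giving 41174 probes, of which 27479 were matched by accession to 18749 gene symbols. A probe counted as above background on an array when most of its remaining spots did, and it entered when this held for all 4 arrays of at least 1 genotype. The brightest probe stood for a gene. Differences were tested with limma (lmFit and eBayes, two-sided, Benjamini-Hochberg adjustment over 14137 genes). The fit was also run on simulated data with noise drawn separately for each gene and array. Deviations in the real data correlated between arrays, so that run gives no error rate for the calls made here. Where a genotype was not above background on any array, the fold is a lower limit against the dimmest signal measurable on each array. Array number limits the precision.

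Named genes were the 9 transporters, Zbtb7b, up to 4 genes of each related list with the smallest p, and the 3 genes most like each called transporter; some results under this rule are not reported here. The transporters, the lists and the tests were chosen with earlier results of these data known. The gene table and promoters were of GRCm38.p6, while the scanner files name another build, so no probe coordinates are given.

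Deviations from the genotype mean correlated between WT and KO arrays of equal number, with r = 0.22, 0.16, 0.30 and 0.28. WT2 and WT4 correlated most with the KO array of their number, but WT1 did so with KO3 (0.26) and WT3 with KO1 (0.34). These values did not single out equal numbers, so pairing the arrays by number as sets of replicates was an assumption. What such a set of replicates had in common is not given in the study's methods. The fit with the number as a block is given for genes and lists whose call or count it changed. Other settings were the scaling, background correction, filter, choice of probe, the authors' table, the methods' t-test, each array left out, and slide position as a block, the last chosen after the data were examined.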

Additional observations from a re-analysis of the deposited data

Results flagged for a closer look

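In 4 of the 78 groups of 4 arrays examined (39 genes, each in WT and KO glands), 1 array lay far from the other three; about 1 such group in 20 arises by chance. Aqp5 read 11.53 on WT1, against 12.63 to 12.69 on the other WT arrays, and 10.89 on KO4, against 11.91 to 11.99 on the other KO arrays. Clcn2 read 8.47 on KO4, against 8.95 to 8.99 on the other KO arrays. Slc26a2 read 8.37 on WT1, against 9.12 to 9.24 on the other WT arrays. In each case the array lay low within its own genotype.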

How the results depend on the processing

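Of the 8 transporter genes 4 were called, and the same number was called with scaling to the 75th percentile, normexp on spot and background medians (the files hold no spot mean), the authors' table, probes above background on all 8 arrays, the mean of a gene's probes, and unnamed probes kept. No filter on dim probes gave 3, with Scnn1a no longer past the threshold at 1.01, as did the methods' t-test (Scnn1a at 1.01). The replicate block, in which arrays of the same number are paired, gave 5, since Slc5a5 passed at -1.05. The methods' t-test called 9 related genes in place of 14 and 1389 genes in all in place of 2331; at its unadjusted threshold the counts were 5 transporter genes, 27 related genes and 4765 genes in all. With slide position as a block, chosen after the data were examined, Aqp3 alone of the transporters was called (Slc34a2 at -2.02, Atp1b1 at 1.79 and Scnn1a at 1.01 were not), with 1 related gene and 137 genes in all. The replicate block called 19 related genes and 2762 genes in all, and it changed no other transporter call.

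With 1 array left out at a time, 2 to 7 transporter genes, 5 to 19 related genes and 518 (without KO3) to 3079 (without WT1) genes in all were called. The differences then ranged from -2.34 to -1.68 for Slc34a2, 0.82 to 1.22 for Scnn1a, -1.36 to -0.78 for Slc5a5, 0.35 to 0.57 for Aqp1 and -0.96 to -0.42 for Aqp5. Aqp3 was called in each of these fits, and so was Atp1b1. Differences near 0 changed sign for Xpr1 (0.00 with the authors' table and with the mean of probes, -0.04 to 0.03 with an array left out). They did so for Slc20a2 too (-0.02 to 0.05 with an array left out), which was at 0.14 with normexp and with the mean of its probes. Lrrc8e was at 0.24 with the mean of its probes. Of 539 values of the 30 named related genes under these settings, 449 kept their direction and side of the threshold. The causes of these changes were not tested. Genes dimmer than the array background, among them Cftr, could not be tested.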
